A study of Mus musculus with 34 samples.

Results

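The third rectal instillation of trinitrobenzene sulfonic acid (TNBS), and the colitis flare that followed it, was followed on arrays of the distal colon in 10 of the 34 mice of the series: 5 mice killed on day 23, 2 days after the instillation, and 5 killed on day 21, just before it was given. All 10 were female BALB/c mice, 8 weeks old at the start, whose skin had been painted with TNBS to sensitise them and which had already received rectal TNBS in ethanol on days 7 and 14, at doses that rose with each instillation. The day 23 mice had received the third and highest dose on day 21; the day 21 mice were 7 days past the second. The rising dose and the number of instillations cannot be told apart, and mice of different days were different animals. The other 24 mice, 4 healthy and 5 each on days 9, 14, 16 and 28, entered the fit to estimate the spread, and days 16 against 14 and day 9 against healthy served to set the third flare beside the 2 before it.

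In this model a hapten that binds to proteins of the gut wall meets a sensitised immune system, and each instillation also injures the mucosa through its ethanol. The early days after such an injury are known for an influx of neutrophils and monocytes drawn by chemokines, for cytokines of the interleukin-6 family that act on epithelium and stroma, and for matrix metalloproteinases that cut extracellular matrix. Surface colonocytes, which carry the transport and detoxification enzymes of the colon, are replaced by crypt cells that divide and spread over the defect.

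Values are log2 fluorescence intensities of Illumina bead arrays, 1 array per mouse, with every intensity under 5 set to 5, which is 2.32 on the log2 scale. A probe counted as above background on an array when it was brighter than 95% of 1324 probes there for chemosensory receptor genes, which the colon is taken not to use. The arrays of day 23 correlated with each other at r = 0.943 to 0.969 and those of day 21 at 0.956 to 0.968, and the arrays held 50.3 to 52.3% and 50 to 52.3% of probes above background. The markers of distal colon epithelium summed to 44250 to 51360 on day 23 and 45100 to 51950 on day 21, so colon epithelium was seen in every mouse. Some arrays also carried markers of tissue that is not colon. The 13 exocrine pancreas genes exceeded their healthy level by 4.64 and 8.63 log2 units, on average, in mice 1 and 3 of day 23 and by 7.64 and 5.93 in mice 2 and 3 of day 21, against at most 1.02 in the other 6 mice, and all 13 were above background in the highest mouse of either day. The pancreas genes summed to 232300 in mouse 3 of day 23 and 133800 in mouse 2 of day 21. The colon markers summed to less in these mice (48250 and 48980). In mouse 1 of day 23 and mouse 3 of day 21 the pancreas sums were 16300 and 37310, below the colon markers. The 14 skeletal muscle genes averaged 5.09 log2 units above healthy in mouse 5 of day 21 and lay between -0.41 and 0.65 in the other 9 mice. The fits without the arrays with pancreas markers kept 3 mice of each day.

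Of 21110 probes tested, 373 were higher (1.77%) and 444 lower (2.1%) on day 23 than on day 21 at a Benjamini-Hochberg adjusted p of 0.05 in limma, and the median log2 change over all probes was -0.01. By the brightest probe of each of 14010 genes, 294 genes were higher (2.1%) and 310 lower (2.21%), with a median change of -0.01. Changes of over 2-fold were seen in 166 of the higher and 116 of the lower probes. All 5 mice of day 23 lay beyond all 5 of day 21 in 201 of the 373 higher probes (53.9%) and 271 of the 444 lower probes (61%), against 3.9% of all probes, a description only, since the same values chose the probes. These counts rest on the spread taken from all 7 groups: with the 10 arrays alone, 27 probes were higher and 17 lower, and 2910 had an unadjusted p under 0.05. Without mouse 5 of day 21 the total of 817 became 330 (325 of them shared with the 817), and without mouse 5 of day 23 it became 384. Without mice 1 and 2 of day 21 in turn it was 461 and 533, and without the 5 arrays of the series with skeletal muscle markers 431. In bulk tissue, fewer cells of a type and less RNA per cell cannot be told apart.

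Genes of macrophages were among the most changed. Arg1, with the largest rise of all genes tested that passed, encodes arginase 1, which splits arginine into ornithine and urea and marks alternatively activated macrophages in mice. Its log2 intensity was 11.86, 10.18, 10.48, 10.38 and 12.69 in the day 23 mice and 2.57, 2.32, 6.03, 3.52 and 2.32 in the day 21 mice. The groups did not overlap, and only mouse 3 of day 21 was above background. The log2 change was 7.77 ± 0.87 (SE; adjusted p = 7.96e-06 in limma), and it passed the test whichever of the 10 arrays was left out and with the 10 arrays alone (adjusted p = 0.0171). Chil3, a chitinase-like protein secreted by macrophages, had 8.53, 8.47, 7.33, 5.99 and 11.89 in day 23 mice and 2.32, 2.32, 4.73, 2.32 and 2.52 in day 21 mice. Mouse 3 was again the only day 21 mouse above background, and the change was 5.60 ± 1.14 (adjusted p = 0.00503). With the other day 21 mice below background, the sizes of the Arg1 and Chil3 changes are uncertain. The related Chil1 averaged 7.34 ± 0.95 on day 23 and 3.46 ± 1.53 on day 21 (SD, n = 5 each), a change of 3.89 (adjusted p = 0.00108).

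**Figure D1:**
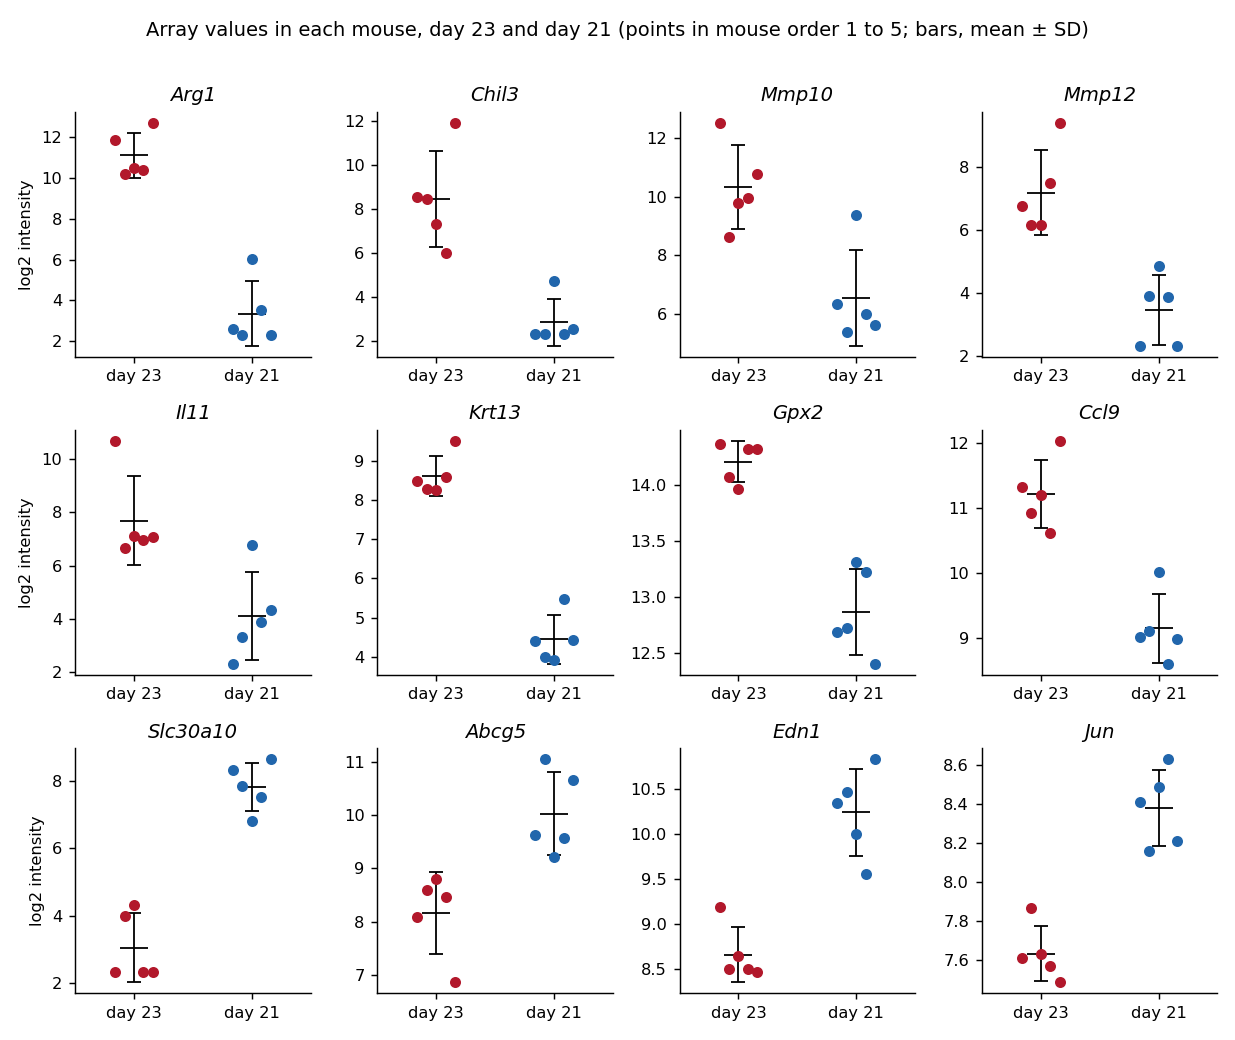
Log2 intensity (vertical axis) of 12 genes in each of the 5 mice of day 23 and the 5 of day 21 (horizontal axis), with the mean and SD of each group as bars. The day 23 mice lie beyond all day 21 mice for 10 of the 12 genes; for Mmp10 and Il11, mouse 3 of day 21 reaches into the day 23 range.

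Of 22 tested genes of monocytes and macrophages, 8 rose and none fell (36.4% against 2.1% of all genes), and the median change over the list was 0.62. Beside Arg1 and Chil3 these were Trem2, a lipid-sensing receptor of tissue macrophages, the scavenger receptor gene Cd163, the mannose receptor gene Mrc1, Fcgr3, C1qb and C1qc. Trem2 read 6.44, 7.10, 7.0, 6.86 and 7.73 in the day 23 mice and 5.87, 3.94, 5.13, 4.84 and 4.81 in the day 21 mice. Every day 23 mouse exceeded every day 21 mouse, by a mean of 2.11 ± 0.33 (adjusted p = 6.1e-04). Cd163 rose by 2.04 ± 0.39 (adjusted p = 0.0029) on its brighter probe, but the other probe of the gene changed by -0.86, so the probes disagree, and the call was lost without the arrays with pancreas markers (adjusted p = 0.0523). The count of 8 was 5 without mouse 5 of day 23 and 1 (Arg1) with the 10 arrays alone. Pf4, a platelet and macrophage chemokine of the CXC group, averaged 10.16 ± 0.73 on day 23 and 8.18 ± 0.54 on day 21 (adjusted p = 0.00289). Pf4 was the only called gene of 10 tested inflammatory CXC chemokines (10% against 2.1% of all genes). Cxcl1 and Cxcl2 had no call.

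Inflammatory CC chemokines, which draw monocytes and eosinophils, had 4 higher members of 13 tested (30.8% against 2.1% of all genes). None was lower, 9 did not pass, and the list median was 1.28. No call was made for Ccl2, Ccl3 or Ccl4. Ccl9, a myeloid cell chemokine of mice, had the lowest adjusted p of the list, with 11.32, 10.93, 11.20, 10.61 and 12.03 in day 23 mice against 9.02, 9.10, 10.02, 8.60 and 8.98 in day 21 mice. It rose by 2.07 ± 0.27 (adjusted p = 4.86e-05) and passed with the 10 arrays alone (adjusted p = 0.0482). The monocyte chemokine Ccl7 was at 7.94, 8.34, 8.29, 9.35 and 9.94 in day 23 mice and at 5.89, 5.84, 7.56, 5.97 and 5.02 in day 21 mice, a change of 2.72 ± 0.49 (adjusted p = 0.00237). The eosinophil attractant Ccl11 rose by 1.40 ± 0.32 (adjusted p = 0.0115; 0.102 without the arrays with pancreas markers). Ccl24, which acts on the same receptor, rose by 2.63 ± 0.68 (adjusted p = 0.0247) and no longer passed without mouse 5 of either day. Ccl28, by contrast, a chemokine of mucosal epithelium, fell by 1.23 ± 0.25 (adjusted p = 0.00539; 0.0501 without the arrays with pancreas markers), with at most 6.76 in any day 23 mouse against at least 7.22 in every day 21 mouse.

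Neutrophil genes were higher in most day 23 mice but spread widely on both days. Of 21 tested, 4 rose (Retnlg, S100a9, Slpi and Mmp9) and none fell (19% against 2.1% of all genes). The median change was 1.14. S100a9, a subunit of calprotectin, read 12.29, 6.41, 9.57, 7.79 and 10.69 in day 23 mice and 2.32, 2.32, 11.23, 3.42 and 4.95 in day 21 mice. Mouse 3 of day 21 was above 4 of the 5 day 23 mice, and the change of 4.5 ± 1.30 (adjusted p = 0.0466) was lost without mouse 1, 3 or 5 of day 23, without mouse 1, 2, 4 or 5 of day 21 and without the arrays with skeletal muscle markers. Its partner S100a8 changed by 4.8 ± 1.47 and did not pass (adjusted p = 0.0618). Slpi, an inhibitor of neutrophil elastase made by epithelium and myeloid cells, rose by 2.18 ± 0.45 (adjusted p = 0.00586), with 11.71 or more in every day 23 mouse and 11.01 or less in every day 21 mouse. Retnlg, a resistin-like gene of mouse neutrophils, changed by 3.55 (adjusted p = 0.0133) and did not pass without mouse 5 of day 21. The list's level was 3.77 log2 units above healthy in mouse 1 of day 23 and 2.24 in mouse 3 of day 21, both of them among the 4 mice with pancreas markers; without those 4 arrays 3 of the 21 genes rose, and without mouse 5 of day 21 only 1 did. Without the 4 arrays S100a9 kept its call, with a change of 4.73 (adjusted p = 0.0367), and Slpi did not (1.69, adjusted p = 0.0789). Without the arrays with skeletal muscle markers the count was 2.

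**Figure D2:**
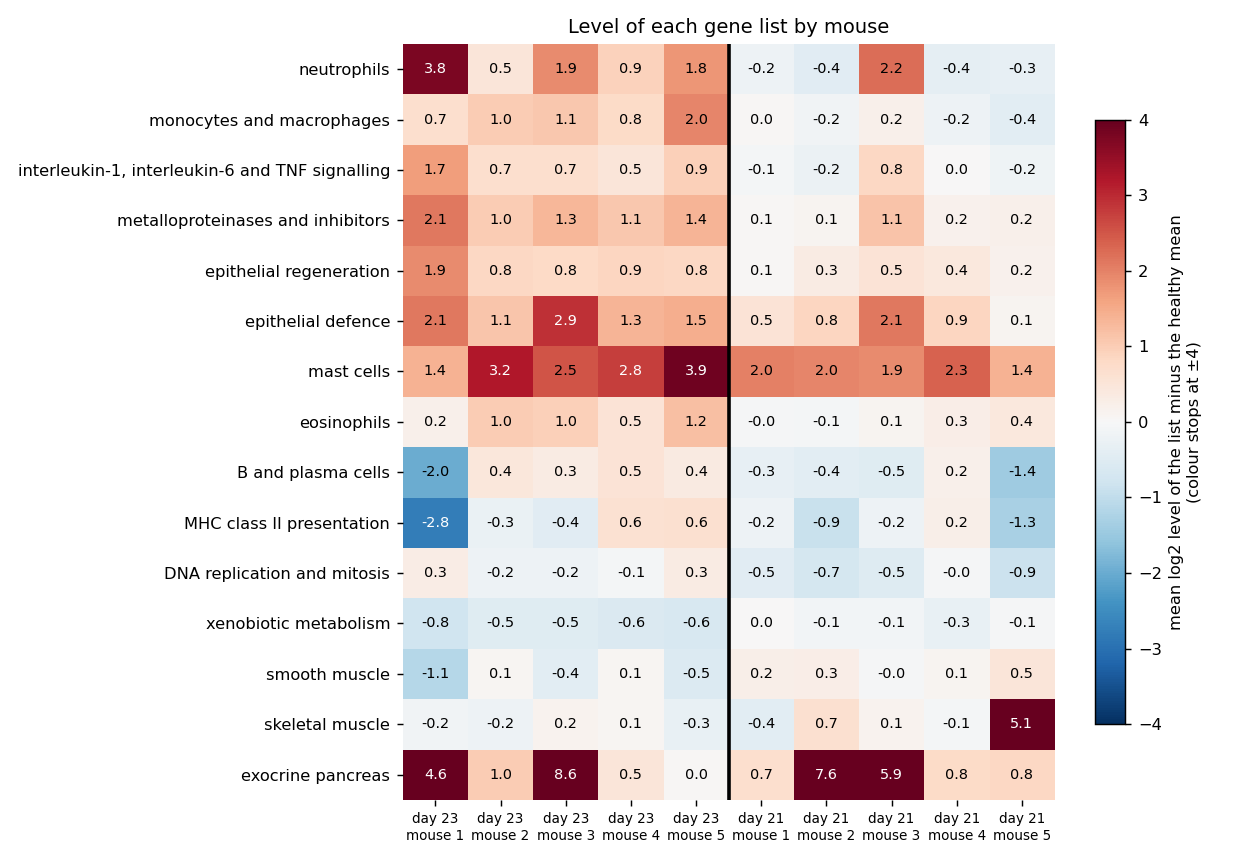
Mean log2 level of 15 gene lists minus the healthy mean, by list (rows) and mouse (columns, the 5 day 23 mice left of the 5 day 21 mice; colours stop at 4 units in either direction). Mouse 1 of day 23 has the highest neutrophil level and the lowest MHC class II level (-2.75), and mouse 3 is the 1 day 21 mouse with raised neutrophil genes (2.24).

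Il11 and Osm, cytokines of the interleukin-6 family, rose. Il11, which signals through gp130 to stromal and epithelial cells, read 10.65, 6.65, 7.12, 6.95 and 7.05 in day 23 mice and 2.32, 3.33, 6.75, 3.88 and 4.34 in day 21 mice, and rose by 3.56 ± 0.84 (adjusted p = 0.015). Mouse 3 of day 21 was above mouse 2 of day 23, and without mouse 1 of day 21 the adjusted p was 0.0567. Osm, the ligand of the same family made by myeloid cells, rose by 2.58 ± 0.68 (adjusted p = 0.0273), a call lost without any of 5 arrays: mice 1 and 5 of day 23 and mice 2, 4 and 5 of day 21. It was also lost without the arrays with pancreas markers (adjusted p = 0.0563) and without those with skeletal muscle markers (adjusted p = 0.0704). Its receptor gene Osmr rose by 0.94 ± 0.16 (adjusted p = 0.0013), and Socs3, the feedback inhibitor that gp130 and STAT3 induce, averaged 10.03 ± 0.69 on day 23 and 8.21 ± 0.71 on day 21 (adjusted p = 0.0029). Osmr and Socs3 passed whichever array was left out. Of 21 genes of interleukin-1, interleukin-6 and TNF signalling these 4 were called (19% against 2.1% of all genes), and none with the 10 arrays alone. Tnf changed by 2.01 ± 0.73 (adjusted p = 0.123) and Il1b by 1.31 ± 0.64 (adjusted p = 0.3), while Il6 was above background in 1 day 23 mouse and no day 21 mouse, and Ifng in 1 mouse of each day. None of 25 interferon response genes was called, with a median change of 0.00.

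Metalloproteinases and their inhibitors had the highest share of calls among the lists: 8 of 19 tested genes rose (42.1% against 2.1% of all genes). None fell, and the median change was 1.06. The higher members were Mmp3, Mmp9, Mmp10, Mmp12, Mmp13, Mmp14, Timp1 and Adamts5. Mmp9 was also counted with the neutrophil genes. Mmp10, the stromelysin of wound-edge epithelium, was at 12.51, 8.62, 9.79, 9.97 and 10.78 in day 23 mice and at 6.33, 5.37, 9.38, 6.0 and 5.62 in day 21 mice. It rose by 3.79 ± 0.63 (adjusted p = 0.00108), and only mouse 3 of day 21 reached the day 23 range. Mmp12, the macrophage elastase, had 6.74, 6.16, 6.14, 7.48 and 9.38 in day 23 mice and 2.32, 3.89, 4.86, 3.85 and 2.32 in day 21 mice, with no overlap and a change of 3.73 ± 0.74 (adjusted p = 0.00383). Mmp3, a stromelysin of fibroblasts, had 10.23, 7.64, 8.66, 8.08 and 8.57 in day 23 mice and 5.98, 5.52, 7.72, 5.77 and 5.89 in day 21 mice (change 2.46 ± 0.45, adjusted p = 0.00266). The collagenase gene Mmp13 rose by 2.40 ± 0.55 (adjusted p = 0.0119) and Timp1, the secreted inhibitor of these enzymes, by 2.13 ± 0.52 (adjusted p = 0.0172). Neither passed without mouse 5 of day 21, and Timp1 also failed without mouse 1 of that day and without the arrays with skeletal muscle markers (adjusted p = 0.0507). The count of 8 fell to 3 without mouse 5 of day 21, to 5 without the arrays with skeletal muscle markers and to 0 with the 10 arrays alone.

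The 4 most changed members lie together on chromosome 9. In the RefSeq gene order of GRCm38.p6, the 10 metalloproteinase genes of that chromosome run Mmp13, Mmp12, Mmp1b, Mmp3, Mmp1a, Mmp10, Mmp8, Mmp27, Mmp20 and Mmp7, and 6 of them had a tested probe. Mmp13, Mmp12, Mmp3 and Mmp10 rose, whereas Mmp1a changed by -0.04 ± 0.18 (adjusted p = 0.971) and Mmp20 by 0.67 ± 0.42 (adjusted p = 0.455). Because these neighbours rose together, the 150 bases before their start sites are shown from the RefSeq promoter windows of GRCm38.p6, all on the plus strand. The windows of Mmp1a and Mmp20 were not looked at singly, so rising and unchanged neighbours were not compared. Capitals mark the motif of AP-1, the dimer of Fos and Jun proteins, searched as TGANTCA, which reads the same on both strands. The windows are chr9:7272364-7272513 for Mmp13, chr9:7347224-7347373 for the downstream start of Mmp12, chr9:7445672-7445821 for Mmp3 and chr9:7502192-7502341 for Mmp10.
Mmp13: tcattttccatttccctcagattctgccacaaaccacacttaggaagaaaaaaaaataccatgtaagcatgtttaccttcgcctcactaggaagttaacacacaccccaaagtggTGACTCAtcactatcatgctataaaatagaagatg
Mmp12: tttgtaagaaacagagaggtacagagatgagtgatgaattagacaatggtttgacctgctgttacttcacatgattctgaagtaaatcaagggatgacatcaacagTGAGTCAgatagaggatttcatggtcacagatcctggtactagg
Mmp3: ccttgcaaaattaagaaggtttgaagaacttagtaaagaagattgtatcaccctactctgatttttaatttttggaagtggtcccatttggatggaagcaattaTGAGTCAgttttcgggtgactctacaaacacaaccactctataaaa
Mmp10: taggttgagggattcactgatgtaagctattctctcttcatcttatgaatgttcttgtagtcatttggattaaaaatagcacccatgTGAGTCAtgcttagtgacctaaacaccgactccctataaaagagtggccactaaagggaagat
The first base of the motif stood at -35 for Mmp13, -44 for Mmp12, -46 for Mmp3 and -63 for Mmp10, counted from the start site; the upstream window of Mmp12 held none. Over the full RefSeq windows of 300 bases, 2565 of 32851 (7.81%) held TGANTCA, as did 34 of 290 windows of higher genes (11.7%), 24 of 318 windows of lower genes (7.55%) and 6.66% of windows of all tested genes. The other motifs searched on both strands were those of NF-kB (GGNNTTTCC), in 8.28% of windows of higher genes, 8.18% of lower and 5.86% of all tested genes, of STAT (TTCNNNGAA), in 7.59%, 5.03% and 7.46%, and of HNF4 (CAAAGTCCA), in 0%, 0.314% and 0.487%. The letters are a description and show no binding. The arrays measured Jun itself as lower on day 23, at 7.61, 7.87, 7.63, 7.57 and 7.49 against 8.41, 8.16, 8.49, 8.63 and 8.21 on day 21, a change of -0.75 ± 0.15 without overlap (adjusted p = 0.00414, and 0.0482 with the 10 arrays alone), and Fos changed by -0.53 ± 0.31 (adjusted p = 0.403).

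**Figure D3:**
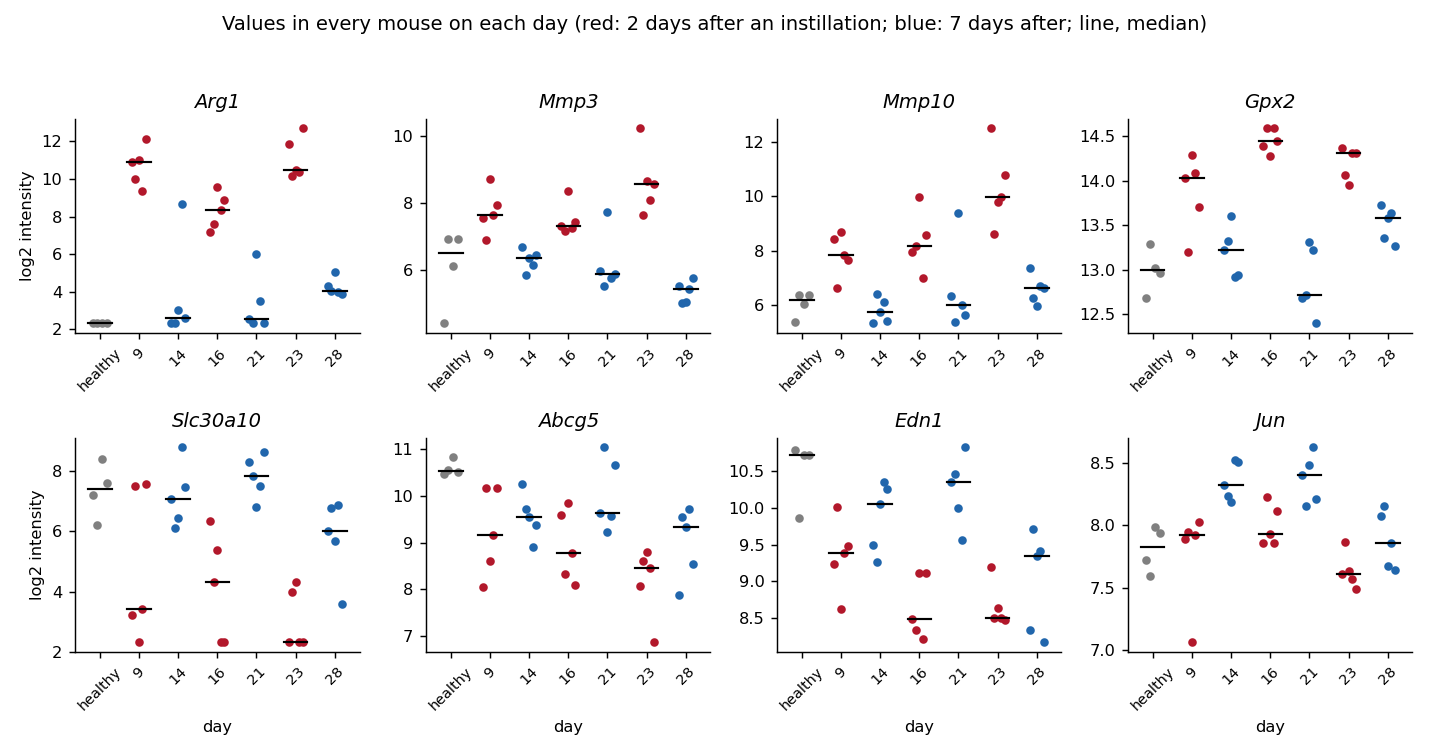
Log2 intensity (vertical axis) of 8 genes in every mouse of each group (horizontal axis: healthy mice, then days 9 to 28), with the median as a line; days 9, 16 and 23 were 2 days after an instillation and days 14, 21 and 28 were 7 days after. Median Mmp10 intensity is 9.97 on day 23 and 6.0 on day 21, and median Slc30a10 intensity is 2.32 on day 23 and 7.84 on day 21.

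Stromal genes moved in part. Of 19 genes of fibroblast activation 6 rose and none fell (31.6% against 2.1% of all genes, median change 0.35). Among these 6, Il11 was also counted with the cytokine genes and Timp1 with the metalloproteinases and inhibitors. The count was 3 without mouse 1 or mouse 5 of day 21 in turn, 4 without the arrays with skeletal muscle markers and 0 with the 10 arrays alone. Grem1, an antagonist of bone morphogenetic proteins made by fibroblasts and muscle under the crypt, averaged 9.23 ± 0.28 on day 23 and 7.90 ± 0.44 on day 21 (adjusted p = 0.00309) without overlap. Inhba, the activin A subunit, rose by 1.56 ± 0.35 (adjusted p = 0.0112). Structural matrix genes had 1 higher (3.7% against 2.1% of all genes) and 2 lower members (7.41% against 2.21%) of 27 tested. Their median change was 0.15. Mfap4, a protein of elastic fibres, fell by 1.04 ± 0.23 (adjusted p = 0.00888, and 0.103 without the arrays with pancreas markers). Without those arrays the matrix counts were 2 higher and 0 lower, and without mouse 3 of day 21 there were 6 higher. In smooth muscle, 3 of 13 genes fell (Myh11, Des and Synm, 23.1% against 2.21% of all genes), and the median change was -0.64. Myh11, the smooth muscle myosin, averaged 11.39 ± 0.45 on day 23 and 12.18 ± 0.25 on day 21 (adjusted p = 0.02), with its lowest values in mice 1 and 5 of day 23 (10.83 and 11.05). None of the 3 passed without the arrays with skeletal muscle markers or those with pancreas markers, nor without mouse 1 or 5 of day 23 or mouse 2 or 5 of day 21 in turn.

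Some genes of wounded and stratified epithelium rose. Of 12 genes of epithelial regeneration 4 rose and none fell (33.3% against 2.1% of all genes, median change 0.77). The count was 3 without the arrays with skeletal muscle markers, 3 without those with pancreas markers and 1 with the 10 arrays alone. Clu, 1 of the 4, rose by 1.01 ± 0.29 (adjusted p = 0.0488), and leaving out any 1 of 7 arrays lost its call. Anxa8, an annexin of stratified and regenerating epithelium, had 10.18, 9.19, 9.15, 9.60 and 9.75 in day 23 mice and 8.24, 8.21, 8.33, 7.74 and 8.45 in day 21 mice (change 1.38 ± 0.21, adjusted p = 5.27e-04). Sprr1a, a cornified envelope protein, rose by 1.72 ± 0.37 (adjusted p = 0.0083), and Plaur, the urokinase receptor gene of migrating cells, by 1.42 ± 0.26 (adjusted p = 0.00238). Neither gene's groups overlapped. Krt13, a keratin of stratified epithelium, had 8.47, 8.28, 8.24, 8.58 and 9.49 in day 23 mice and 4.41, 4.01, 3.91, 5.47 and 4.42 in day 21 mice, and rose by 4.17 ± 0.91 (adjusted p = 0.0083). Krt13 did not pass without the arrays with pancreas markers (4.02, adjusted p = 0.0814). Krt90 rose by 4.58 ± 0.91 (adjusted p = 0.00417) and did not pass with the 10 arrays alone (adjusted p = 0.0924). Of 18 squamous genes Krt13 and Sprr1a were the only ones called (11.1% against 2.1% of all genes). The median change of the list was 0.23. Of 18 junction genes 1 rose and 1 fell (5.56% each, against 2.1% and 2.21% of all genes), and 16 did not pass. Over this list 13 changes were negative, with a median of -0.24. Cldn4, a tight junction claudin, averaged 11.65 ± 0.85 on day 23 and 9.92 ± 0.32 on day 21 (adjusted p = 0.00108). Cldn11 fell by 1.06 ± 0.25 (adjusted p = 0.0153) but was above background in only 1 day 21 mouse. Its call was lost without the arrays with pancreas markers (adjusted p = 0.221).

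Of 18 genes of epithelial defence 3 rose and none fell (16.7% against 2.1% of all genes), and the median change was 0.36. The 3 were Gpx2, Reg3b and Sprr2a1. Sprr2a1 rose by 0.93 ± 0.20 (adjusted p = 0.0083). Gpx2, the glutathione peroxidase of intestinal epithelium, was higher in every day 23 mouse than in any day 21 mouse: 14.37, 14.07, 13.96, 14.32 and 14.32 on day 23 against 12.68, 12.72, 13.31, 13.22 and 12.40 on day 21, a change of 1.34 ± 0.18 (adjusted p = 7.38e-05; 0.0362 with the 10 arrays alone). Reg3b, a C-type lectin of gut epithelium that the exocrine pancreas also makes, read 14.41, 6.57, 13.40, 6.42 and 7.54 in day 23 mice and 2.32, 3.97, 9.47, 2.32 and 4.02 in day 21 mice. Its 3 highest values were in mice 1 and 3 of day 23 and mouse 3 of day 21, 3 of the 4 mice with pancreas markers. Its change was 5.25 ± 1.37 (adjusted p = 0.0268), and 3.95 without those 4 arrays (adjusted p = 0.0408). The call was lost without mouse 1 or 3 of day 23, without mouse 1, 2, 4 or 5 of day 21, and without the arrays with skeletal muscle markers (adjusted p = 0.0675). Lcn2 changed by 3.37 ± 1.27 (adjusted p = 0.142) and Reg3g by 3.35 ± 1.04 (adjusted p = 0.0669). Ang4, a Paneth and goblet cell ribonuclease, read 8.81 in mouse 1 of day 23 and 14.45 to 15.02 in the other 4, against 12.76 to 13.78 on day 21 (adjusted p = 0.976). None of 18 goblet cell genes was called (median change 0.14), and the goblet peptide gene Tff3 changed by -0.17 ± 0.11 (adjusted p = 0.489).

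Several of the most changed single genes belonged to other pathways. Mfsd2a, a transporter of lysophospholipids, read 10.54, 9.08, 9.5, 9.84 and 10.03 in day 23 mice and 5.88, 6.52, 7.61, 8.14 and 5.50 in day 21 mice, and rose by 3.07 ± 0.39 (adjusted p = 4.45e-05). Serpina3n, a serine protease inhibitor of the acute phase, rose by 2.95 ± 0.39 (adjusted p = 7.01e-05), Btbd11 by 2.31 ± 0.30 (adjusted p = 5.68e-05) and Ly6m by 2.57 ± 0.51 (adjusted p = 0.00424). None of these 4 overlapped between the groups, and all 4 passed whichever array was left out, although Ly6m did not without the arrays with pancreas markers (adjusted p = 0.0942). Sema7a, a semaphorin, rose by 2.32 ± 0.39 (adjusted p = 0.00108) on its brightest probe, with 0.32 and 0.86 on the other 2. Egln3, an oxygen-sensing prolyl hydroxylase that hypoxia induces, averaged 11.40 ± 0.21 on day 23 and 9.94 ± 0.46 on day 21 (adjusted p = 5.67e-04). The glucose transporter gene Slc2a1 rose by 0.61 ± 0.13 (adjusted p = 0.00671). Of 23 genes of hypoxia and glycolysis, 3 were called higher (13% against 2.1% of all genes) and none lower. Hmox1, which degrades haem, rose by 2.27 ± 0.46 (adjusted p = 0.00492; 0.0539 without the arrays with pancreas markers) and the transferrin receptor gene Tfrc by 0.82 ± 0.18 (adjusted p = 0.00872).

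Pla2g4c, a phospholipase A2 that frees fatty acids from membranes, split the day 23 mice. It was at 11.85, 11.38, 11.66 and 11.94 in mice 2 to 5 of day 23 and at the floor of 2.32 in mouse 1, against 4.18, 2.32, 5.86, 5.69 and 2.32 in day 21 mice. The change was 5.76 ± 1.46 (adjusted p = 0.0226), and the call was lost without any of 5 arrays: mice 3, 4 and 5 of day 23 and mice 2 and 5 of day 21. It was also lost without the arrays with skeletal muscle markers (adjusted p = 0.0599). The mast cell protease gene Mcpt1 was also lowest in mouse 1 of day 23: it had 8.25 in that mouse and 10.45 to 12.99 in the others, against 7.73 to 10.65 on day 21, and did not pass (change 1.87 ± 0.70, adjusted p = 0.14). None of 14 mast cell genes passed, with 13 of the 14 changes positive and a median of 0.72. This count rested on mouse 1 of day 23: without it 6 of the 14 were higher, and without the arrays with pancreas markers, that mouse among them, 5 were, with Mcpt1 at a change of 3.10 (adjusted p = 0.0236). Rnase2a, a ribonuclease of the eosinophil family, read 7.87, 11.63, 11.09, 10.30 and 12.23 in day 23 mice and 6.91, 8.05, 6.49, 6.07 and 7.96 in day 21 mice. It rose by 3.53 ± 0.85 (adjusted p = 0.0166) and did not pass without mouse 5 of day 23. Rnase2a was the only called gene of 6 tested eosinophil genes (16.7% against 2.1% of all genes), and the list median was 0.18. Only 1 to 2 of these 6 genes were above background on any array of either day.

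No gene of MHC class II presentation (15 tested), of B and plasma cells (19 tested) or of the stem cell list (14 tested) was called. Of 20 T cell and intraepithelial lymphocyte genes only Il15 was called, as lower (5% against 2.21% of all genes). Over this list 10 changes were positive and 10 negative. Without mouse 1 of day 23, 5 genes of B and plasma cells and 2 of MHC class II were called higher, and without the arrays with pancreas markers the counts were 4 and 2. The stem cell count stayed at 0 in both. In these fits 505 and 369 of all 21110 probes were called higher. Il15, a cytokine that sustains intraepithelial lymphocytes, was at 8.11, 8.34, 8.21, 8.31 and 8.22 in day 23 mice and at 9.13, 8.96, 8.89, 9.04 and 9.47 in day 21 mice, and fell by 0.86 ± 0.17 (adjusted p = 0.00348), with larger falls on its other 2 probes (-2.07 and -1.08). The MHC class II list lay 2.75 log2 units below healthy in mouse 1 of day 23 and between -0.44 and 0.63 in the other 4 mice of that day, against -1.30 to 0.22 on day 21.

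Among the lower genes, the list of detoxification genes held the most calls. Of 35 tested genes of xenobiotic metabolism 11 fell and none rose (31.4% against 2.21% of all genes), and the median change was -0.48. The lower members were the cytochrome P450 genes Cyp2d22, Cyp2d26 and Cyp3a13, the glutathione transferases Gsta3, Gstm1 and Gstt1, the sulfotransferases Sult1a1, Sult1c2 and Sult1d1, the retinal dehydrogenase Aldh1a1 and the xenobiotic receptor gene Nr1i2. Cyp3a13 had 8.82, 8.16, 8.43, 8.55 and 8.24 in day 23 mice and 9.97, 9.29, 9.03, 9.17 and 9.84 in day 21 mice (change -1.02 ± 0.19, adjusted p = 0.00271). Sult1a1, a phenol sulfotransferase, had 10.60, 11.73, 11.68, 11.80 and 11.43 in day 23 mice and 12.91, 12.54, 12.25, 12.39 and 12.74 in day 21 mice (change -1.12 ± 0.25, adjusted p = 0.00927; 0.0612 without the arrays with pancreas markers). Both were below every day 21 mouse in all 5 day 23 mice. Sult1c2 fell by 1.64 ± 0.38 (adjusted p = 0.0144), which did not pass without mouse 5 of day 23. As a list, the 35 genes averaged 0.47 to 0.80 log2 units below healthy in the day 23 mice and 0.29 below to 0.02 above healthy in the day 21 mice. The 11 calls were 5 without mouse 5 of day 23, 4 without the arrays with pancreas markers and 0 with the 10 arrays alone.

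**Figure D4:**
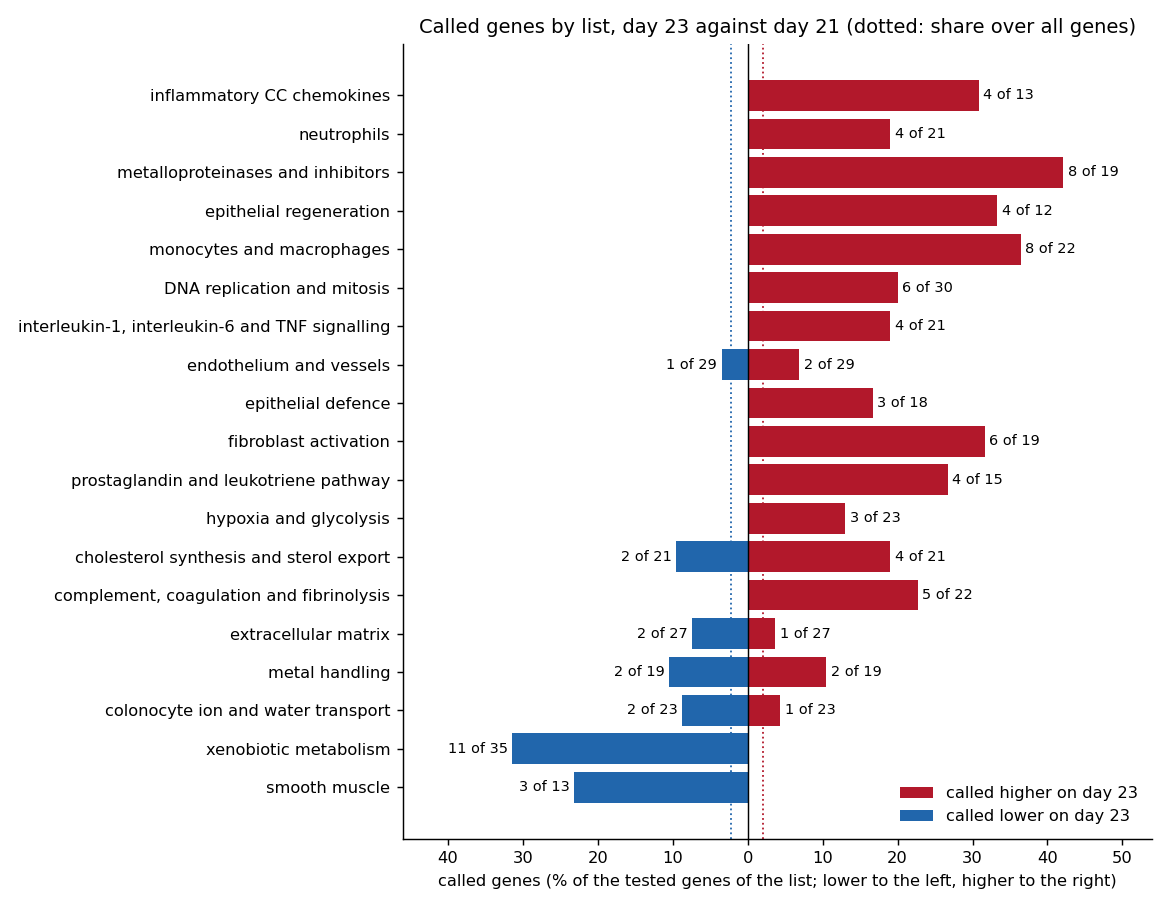
Share of the tested genes of each list that were called higher (red, to the right) or lower (blue, to the left) on day 23 against day 21, for the 19 lists with at least 3 calls, ordered by the median change. Metalloproteinases have the highest share called higher (8 of 19) and xenobiotic metabolism the highest share called lower (11 of 35); dotted lines mark 2.1% and 2.21%, the shares over all genes.

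The largest single fall was that of Slc30a10, a manganese exporter of the apical membrane of enterocytes. It read 2.32, 3.99, 4.33, 2.32 and 2.32 in day 23 mice and 8.31, 7.84, 6.81, 7.51 and 8.63 in day 21 mice. No day 23 mouse was above background and all 5 day 21 mice were, so that the gene was at least 9.12-fold lower, with a fitted change of -4.76 ± 0.90 (adjusted p = 0.00289; 0.0222 with the 10 arrays alone). This bound sets the day 21 mean against the lowest level that counts as above background. Itih2, a hyaluronan-binding serum protein, was likewise below background in all 5 day 23 mice and at least 3.14-fold lower (adjusted p = 0.0152), a call lost without mouse 5 of either day and without the arrays with pancreas markers (adjusted p = 0.0513). Tppp3, a tubulin-binding protein, averaged 7.43 ± 0.81 on day 23 and 9.53 ± 0.44 on day 21 (adjusted p = 0.0013), and Odf3b fell by 2.15 ± 0.45 (adjusted p = 0.00667). Hao2, a peroxisomal hydroxyacid oxidase, fell by 1.77 ± 0.39 (adjusted p = 0.00927), and Gm1123 by 1.56 ± 0.26 (adjusted p = 0.00108).

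Edn1, the gene of the vasoconstrictor endothelin 1, read 9.19, 8.5, 8.64, 8.5 and 8.47 in day 23 mice and 10.35, 10.47, 10, 9.56 and 10.83 in day 21 mice. The groups did not overlap, and the fall of 1.58 ± 0.30 (adjusted p = 0.00312) also passed with the 10 arrays alone (adjusted p = 0.0482). Ttr, which encodes a carrier of thyroxine and retinol, fell by 1.60 ± 0.38 (adjusted p = 0.0163) and did not pass without mouse 5 of either day or without the arrays with pancreas markers (adjusted p = 0.0953). Of 23 genes of colonocyte ion and water transport 2 fell (8.7% against 2.21% of all genes) and 1 rose (4.35% against 2.1%). The list median was -0.27. The lower genes were Slc30a10 and the water channel gene Aqp8. Aqp8 fell by 0.74 ± 0.18 (adjusted p = 0.0184), a call lost without mouse 5 of day 23, mouse 1 of day 21 or the arrays with pancreas markers. The colonic proton pump gene Atp12a rose by 0.87 ± 0.23 (adjusted p = 0.0255), a call lost without mouse 4 or 5 of day 23 or mouse 2 or 5 of day 21. None of 39 genes of oxidative phosphorylation was called, with a median change of -0.10, and none of 18 epithelial transcription factors, with a median of -0.21.

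Sterol genes went both ways, with 4 of 21 higher (19% against 2.1% of all genes) and 2 lower (9.52% against 2.21%). Abcg5 and Abcg8, whose products pair to export sterols to the gut lumen, were both lower. Abcg5 read 8.08, 8.60, 8.80, 8.46 and 6.87 in day 23 mice and 9.63, 11.04, 9.22, 9.57 and 10.65 in day 21 mice (change -1.86 ± 0.44, adjusted p = 0.0157), a call lost without mouse 2 or 5 of day 21 or mouse 5 of day 23. Abcg8 fell by 2.21 ± 0.61 (adjusted p = 0.0381) and was above background in 2 of 5 day 23 mice, a call lost without mouse 4 or 5 of day 23 or mouse 1, 2 or 5 of day 21. Of the synthesis genes, Lss, Cyp51, Hsd17b7 and Msmo1 rose, with Lss, the lanosterol synthase, at 8.86 ± 0.38 on day 23 and 8.07 ± 0.40 on day 21 (adjusted p = 0.0196). Lss did not pass without mouse 5 of day 23 or mouse 1, 2 or 5 of day 21. Among the 21 tested genes of the list, the counts of 4 higher and 2 lower were 0 and 1 without the arrays with skeletal muscle markers, 2 and 0 without those with pancreas markers (neither Abcg5 nor Abcg8 passed), and both were 0 without mouse 2 or 5 of day 21 or mouse 5 of day 23 in turn.

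Genes of DNA replication and mitosis shifted together by small amounts. Of 30 tested, 29 changes were positive, and 6 genes rose (20% against 2.1% of all genes). None fell, and the median change was 0.60. Rrm2, a subunit of ribonucleotide reductase, had 7.62, 7.07, 7.32, 6.89 and 7.62 in day 23 mice and 6.37, 5.48, 6.20, 6.53 and 5.8 in day 21 mice (change 1.23 ± 0.24, adjusted p = 0.00373; 0.0919 without the arrays with pancreas markers). Mcm4, of the replicative helicase, rose by 0.64 ± 0.13 (adjusted p = 0.00348). On the scale of healthy colon, the list lay between 0.21 below and 0.33 above healthy on day 23 and between 0.86 and 0.04 below on day 21. The count of 6 was 2 without the arrays with skeletal muscle markers, 1 without those with pancreas markers, 2 without mouse 1, 2, 3 or 5 of day 21 or mouse 5 of day 23 in turn, and 10 without mouse 4 of day 21. Of 17 enteroendocrine genes 2 rose and none fell (11.8% against 2.1% of all genes). Over this list 9 changes were positive and 8 negative, with a median of 0.07. The 2 called genes encode hormones of colonic L cells: Pyy rose by 0.51 ± 0.11 (adjusted p = 0.00887) and Gcg by 0.85 ± 0.19 (adjusted p = 0.00841). Gcg is also a gene of pancreatic islets, and neither passed without the arrays with pancreas markers (adjusted p = 0.0614 for Pyy and 0.0902 for Gcg) or with the 10 arrays alone. Of 14 clock genes 1 fell and 1 rose (7.14% each, against 2.21% and 2.1% of all genes). Neither passed without the arrays with pancreas markers. Arntl, the partner of Clock, fell by 0.97 ± 0.23 without overlap (adjusted p = 0.0129, lost without mouse 5 of day 21) and Bhlhe40 rose by 0.49 ± 0.13 (adjusted p = 0.0265, lost without mouse 2, 4 or 5 of day 23 or mouse 2 or 3 of day 21); the hour at which mice were killed is not given in the sources used here.

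The third flare was then set beside the flares of the earlier instillations, on arrays that share no mouse with it. Day 16 against day 14 brackets the second instillation and gave 21 higher (0.0995%) and 7 lower probes (0.0332%). Day 9 against healthy follows the first and gave 251 higher (1.19%) and 172 lower (0.815%). The healthy mice are labelled as healthy controls, and the part of skin sensitisation or ethanol in the day 9 change was not tested. Of the 373 probes higher on day 23, 354 (94.9%) had a positive change from the second instillation, against 49.8% of all probes, and 310 (83.1%) from the first, against 45.1%. Of the 444 lower probes, 416 (93.7%) and 405 (91.2%) had a negative change, against 50.2% and 54.8% of all probes. Calls in both were 15 and 4 for the second instillation (4.02% and 0.901% of those found here, 71.4% and 57.1% of those found there) and 98 and 40 for the first (26.3% and 9.01% here, 39% and 23.3% there). No probe was called in opposite directions. Over all 21110 probes the changes correlated at r = 0.369 with those of the second and r = 0.32 with those of the first instillation, across probes, which are not independent.

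**Figure D5:**
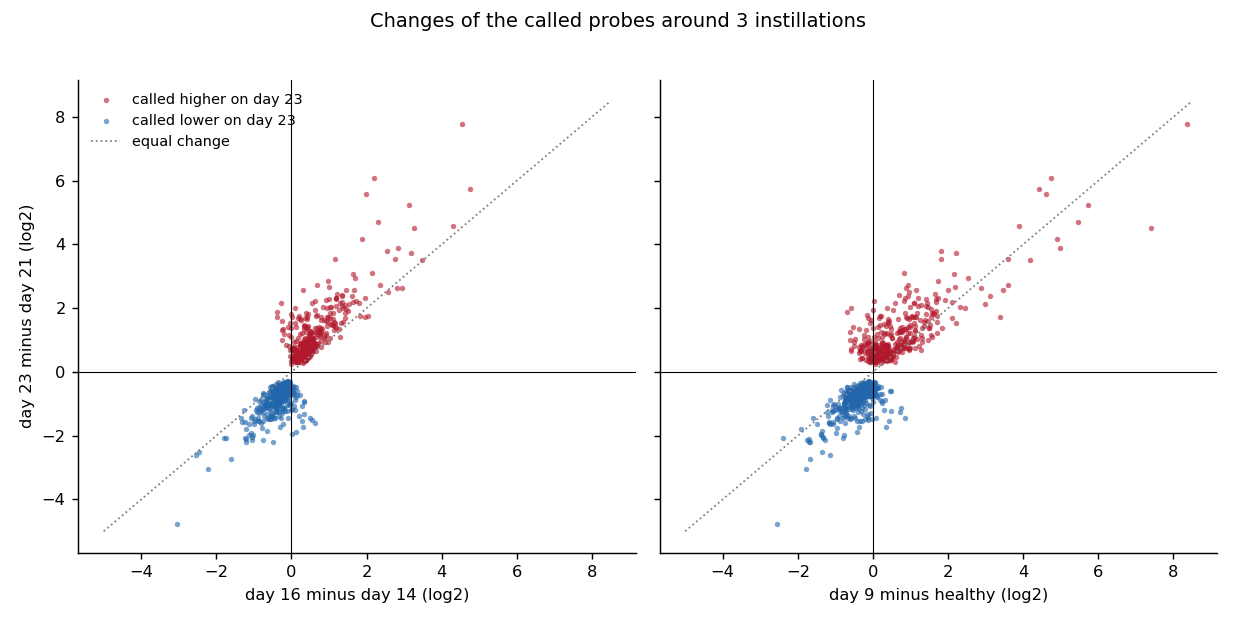
Log2 change of day 23 against day 21 (vertical axis) for the 373 higher (red) and 444 lower (blue) probes, against the log2 change of day 16 against day 14 (left) and of day 9 against healthy (right); the dotted line marks equal changes. Most points share the sign of both axes (94.9% and 93.7% in the left panel), with sizes on the vertical axis that chose the probes.

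By size, the median change of the higher probes was 0.89 here and 0.41 after the second instillation, and that of the lower probes -0.71 and -0.30, the values here being those that chose the probes. The difference itself was tested: the change of day 23 against 21 minus that of day 16 against 14 passed for 0 probes in either direction in limma (0% each; 473 and 533 had an unadjusted p under 0.05, and with those 20 arrays alone 0 passed as well). It was 1 probe without the arrays with pancreas markers, without mouse 1 of day 23 and without mouse 1 of day 14. Arg1 had a change of 7.77 here, 4.54 after the second and 8.36 after the first instillation, Mmp10 3.79, 2.54 and 1.81, Il11 3.56, 1.15 and 1.82, and Slc30a10 -4.76, -3.04 and -2.54. Gpx2 had 1.34, 1.25 and 0.87, the same sign each time.

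Against the first instillation, 7 probes differed, all with a lower change now (0.0332%, with 0% the other way; 900 and 739 had an unadjusted p under 0.05), and 1 with the arrays of those groups alone. This count turned on single arrays: without mouse 1 of day 23 it was 51 (38 higher and 13 lower), without mouse 5 of day 9 it was 16, and without the arrays with skeletal muscle markers, 3 of them from day 9, it was 26. Without those with pancreas markers it was 27 (21 higher and 6 lower). In 6 of the 7 probes the levels were high on day 9 and at or near the floor on days 23 and 21. The alpha-defensin gene Defa31, a Paneth cell product, changed by 0.65 here and 6.38 on day 9, AY761185 by 0.65 and 5.76, and the apolipoprotein gene Apoa1 by -0.30 and 4.34, and 3 probes with no gene name were at the floor on all 10 arrays here. The exception was H4c18, a histone H4 gene, which read 6.89, 6.98, 6.90, 6.37 and 6.37 in day 23 mice and 7.55, 8.10, 7.71, 7.41 and 8.81 in day 21 mice. It fell by 1.22 ± 0.20 here (adjusted p = 0.00102) and changed by 0.48 after the first instillation, a difference of -1.70 (adjusted p = 0.00969).

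Of the 108 genes that the naming rules chose and that passed the test, 60 passed whichever of the 10 arrays was left out, and 12 passed with the 10 arrays alone: Arg1, Krt13, Ly6m, Btbd11, Ccl9, Sprr1a, Egln3 and Gpx2 among the higher, and Slc30a10, Edn1, Il15 and Jun among the lower. In that fit no list kept more than 2 calls. The 108 lost 44 calls without the arrays with pancreas markers and 31 without those with skeletal muscle markers. In the 5 mice of day 28, 7 days after the third instillation, median Arg1 was 4.06 and median Mmp10 6.62, with 6.0 for Slc30a10 and 13.58 for Gpx2; the day 21 medians of these genes were 2.57, 6.0, 7.84 and 12.72.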

How the data were processed

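The authors hybridised labelled RNA from the distal colon of 34 mice to Illumina mouse bead arrays, subtracted background, quantile normalised and deposited 1 value per probe and array. The deposited values are on a log2 scale, inferred from their range, with array medians of 4.77 to 4.78; scale and floor are not stated in the file, and no measure of depth exists beyond the number of arrays. The scanner table was not used, since its 68 columns name chip positions that are not tied to mice.

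Intensities under 5 were set to 5, and 21110 of 25697 probes over it in at least 4 of 34 arrays were tested. Background lay at a linear intensity of 22.3 to 30.5 across arrays, above this floor. Levels below background are not resolved, so the sizes of fold changes that reach them are uncertain. limma (version 3.58.1) was fitted to all 7 groups, with 27 residual degrees of freedom and Benjamini-Hochberg adjustment; p-values measure the spread between mice, 1 array each. Gene names came from the platform annotation (23978 probes with 1 symbol, 1719 not listed), and 23962 matched the RefSeq table. A gene stands for its brightest tested probe (3899 genes had more than 1); among 198 called genes with several probes none had opposite calls. Genes were named for size (up to 15 per direction that passed, did not overlap and were above background on all arrays of the higher day), as the largest called members of 53 lists, as defining members, or for a difference between flares. The members, lists and rules were chosen with earlier results of these data known. Alternatives covered floor, scale, filters, arrays, variance model, weights, normalisation and each array left out. The fit was tested on simulated data.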

Additional observations from a re-analysis of the deposited data

Results flagged for a closer look

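Mouse 3 of day 21 lay far from the other 4 mice of its day in 10 genes, always on the high side: Chil3 (4.73), Mmp3 (7.72), Mmp10 (9.38), Timp1 (10.34), Grem1 (8.68), Reg3b (9.47), Reg3g (4.5), Serpina3n (9.92), Apoa1 (3.59) and Lcn2 (8.27), all log2 intensities. Mouse 1 of day 23 lay far from its day in 9 genes: high in Il11 (10.65), Socs3 (11.22), Tfrc (12.15), Serpina3n (13.38) and Edn1 (9.19), and low in Pla2g4c (2.32), Tppp3 (5.99), Ccl28 (5.21) and Ang4 (8.81). Single values stood apart in mouse 4 of day 23 (Cd163 at 8.13, low, and Aqp8 at 11.64, high), mouse 5 of day 23 (Krt13 at 9.49, high) and mouse 4 of day 21 (Defa31 at 2.88, high but near the floor). In all, 23 of 178 groups of 5 values had such a mouse by Dixon's test (12.9%). The cutoff stands for about 1 in 20 only with normal, independent values. Values set to the floor and genes read on the same arrays are neither, so no chance rate can be set beside this share. Mouse 3 of day 21 and mouse 1 of day 23 carried pancreas markers, and the part of these markers in the values was not tested.

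The change after the third instillation differed from that after the first for 7 probes in limma. The differences in log2 change were -5.73 for Defa31, -4.64 for Apoa1, -5.11 for AY761185, -1.70 for H4c18, and -8.71, -6.56 and -5.87 for 3 probes with no gene name.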

How the results depend on the processing

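The 817 probes that differed between day 23 and day 21 became 44 with the 10 arrays alone and 431 without the 5 arrays with skeletal muscle markers. Leaving out 1 array gave 330 (without mouse 5 of day 21) to 927 (without mouse 3 of day 21). The share of higher calls was 45.65%, but 61.36% with the 10 arrays alone and 58.29% without the arrays with pancreas markers (369 higher and 264 lower, 398 shared with the 817), an alternative chosen after seeing the data. The other alternatives gave 579 to 1105. The difference from the second instillation was 0 probes, and 1 without the arrays with pancreas markers, without mouse 1 of day 23 and without mouse 1 of day 14; leaving out 1 array gave 0 to 1. The difference from the first, 7 probes, became 11 among probes above receptor background, 1 with the arrays compared alone, 13 with a trended robust variance, 12 with array weights, 26 without the muscle-marker arrays and 27 without the pancreas-marker arrays (21 higher and 6 lower), and leaving out 1 array gave 7 to 51. The causes were not tested. Mouse numbers did not pair the samples (correlations of deviations -0.06 to 0.15); with the number as a replicate block the counts were 741, 0 and 9. No named gene that passed the test reversed. A change of sign in genes without a call was not counted. With 5 arrays a day, low probes near the floor were the least precise.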
